A study of Mus musculus with 6 samples.

Results

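The genes described here are 6 STAT transcription factors, Stat2, Stat3, Stat4, Stat5a, Stat5b and Stat6, and 3 feedback inhibitors of the SOCS family, Socs1, Socs3 and Cish. They were chosen by symbol, as 9 of the 23850 gene rows of the deposited tables, and each symbol had 1 row. Other STAT genes were not analysed here. The deposited tables give no read counts, so sequencing depth is unknown. Messenger RNA came from germinal centre B cells generated in vitro from wild type C57BL/6J mice. It was sequenced in 3 libraries of cells treated with CHIR99021, an inhibitor of the kinase GSK3, at 3 uM, and 3 libraries of cells treated with the solvent DMSO, for which the labels print the same figure. All 6 cultures shared the rest of their history. Naive follicular B cells grew for 4 days on feeder cells that carry CD40L, with IL-4 at 1 ng/ml, and the treatment then lasted 36 h on such feeders with IL-21 at 10 ng/ml. No library was made without IL-21, so the contrast of CHIR99021 with DMSO was made under IL-21 throughout. The cells were purified before RNA was taken, by a method the labels do not state.

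Cytokine receptors without kinase activity of their own carry Janus kinases (JAKs), which phosphorylate the receptor and then the STAT proteins that dock on it. The STATs pair, enter the nucleus and switch on genes, among them those of the SOCS proteins, which bind receptors or JAKs and damp the signal. In B cells STAT6 carries the IL-4 signal, which drives class switching and the expression of CD23, and STAT3 is the main carrier of the IL-21 signal, which promotes germinal centre and plasma cell differentiation. STAT5A and STAT5B act downstream of the IL-2 family, STAT4 downstream of IL-12 and type I interferon, and STAT2 works with IRF9 in the type I interferon response.

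Stat6, Socs3, Stat3 and Stat5b were lower in CHIR99021 cells than in DMSO cells. The estimated changes of all 9 genes were negative, as were those of 5534 of the 10096 tested genes. Cish was lower in only 1 of 3 replicate numbers. Levels are FPKM (fragments per length of transcript and per sequenced fragments), and changes are differences of log2(FPKM + 1) tested with limma over the 10096 genes averaging at least 1 FPKM, a level that all 9 genes reached. With Benjamini-Hochberg adjusted p under 0.05 as the threshold, 4 of the 9 genes were called lower. Of all tested genes 21.4% were called, 13.3% as lower and 8.13% as higher. The higher ones were 37.9% of those calls, or 48.7% with upper-quartile and 51.2% with quantile scaling, and Stat6, Socs3, Stat3 and Stat5b were called lower under both scalings. The median change of the 9 genes was -0.34, against -0.04 for all tested genes. For 4 of the 9 genes all CHIR99021 libraries lay below all DMSO libraries, against 23.1% of all tested genes lower and 17.0% higher in that way. The count of 4 fell to 2 without CHIR99021 replicate 3, to 2 without DMSO replicate 3, and to 2 with both libraries numbered 1 left out.

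Libraries with the same replicate number deviated together from their group means, so a fit with the number as a block was run beside the one without it. With the block 6 of the 9 genes were called lower, the same 4 with Stat2 and Stat5a added, where 42.8% of all tested genes were called, 24.4% as lower and 18.4% as higher. Stat4, Socs1 and Cish did not pass in either fit.

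**Figure D1:**
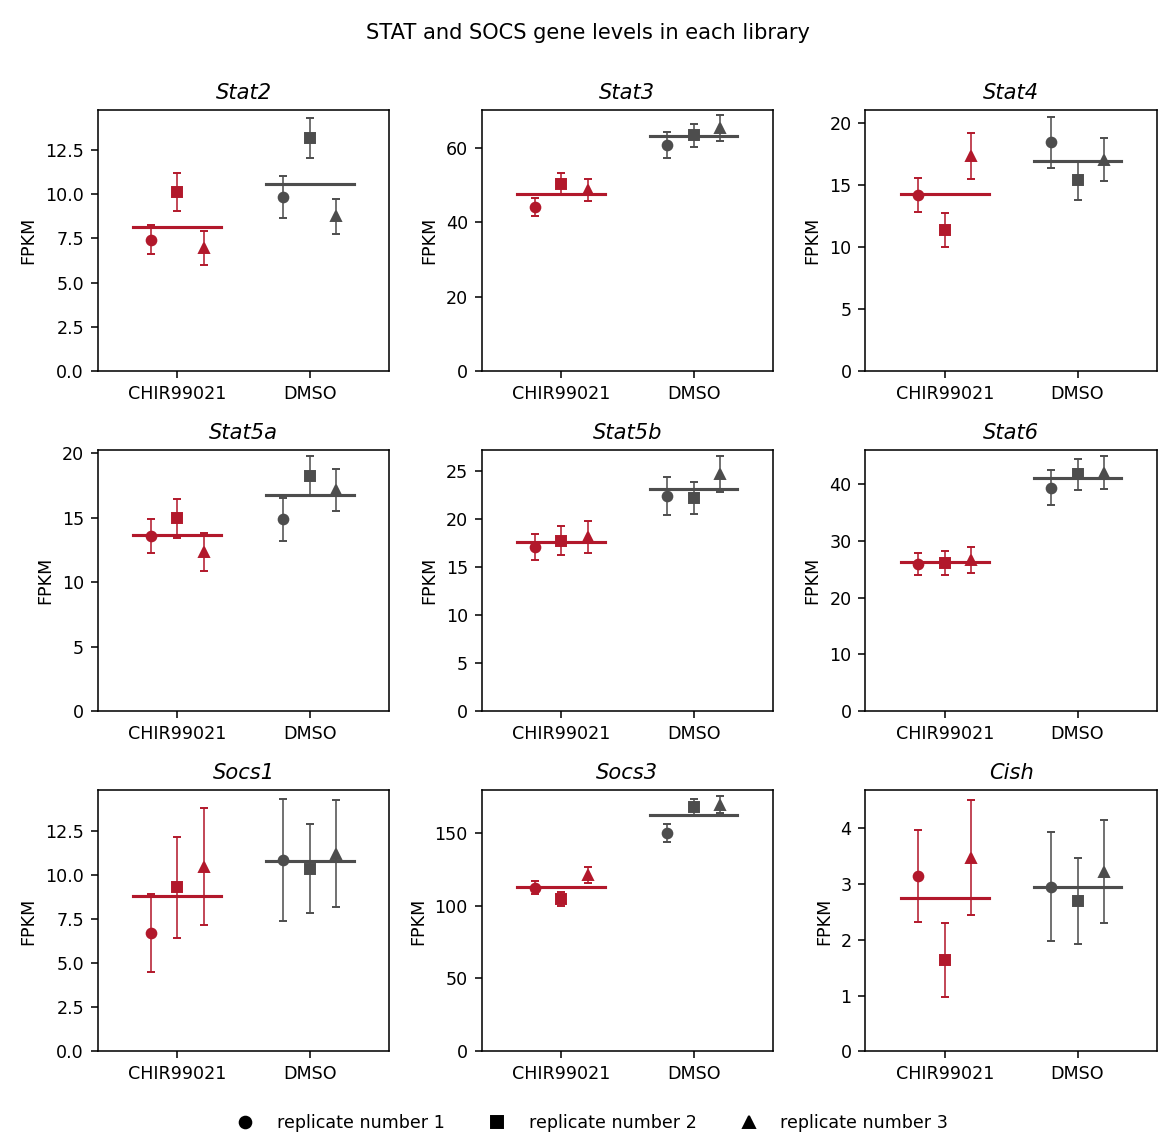
FPKM of each STAT and SOCS gene in 3 CHIR99021 and 3 DMSO libraries, with the group mean as a line and the Cufflinks confidence limits of each library as bars. The groups are apart for Stat3, Stat5b, Stat6 and Socs3 and overlap for the other 5 genes.

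**Figure D2:**
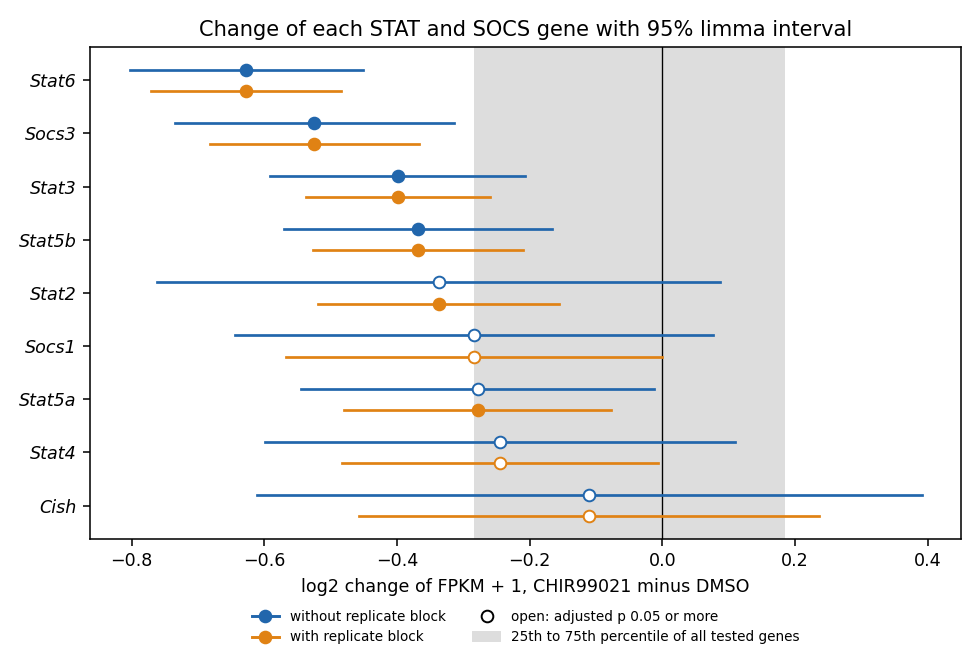
Change of each gene in CHIR99021 minus DMSO on the log2(FPKM + 1) scale, with its 95% limma interval without and with the replicate block; filled points passed the adjusted p threshold and the grey band covers the 25th to the 75th percentile of all tested genes. Stat6 and Socs3 lie farthest to the left, and the Cish interval spans 0 in both fits.

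Stat6 encodes the transcription factor of the IL-4 and IL-13 signal. It stood at 26.0, 26.0 and 26.5 FPKM in the CHIR99021 libraries, against 39.3, 41.7 and 41.9 FPKM in the DMSO libraries. Every CHIR99021 value was below every DMSO value, and the spread within each group was small beside the gap. Stat6 averaged 26.2 ± 0.317 FPKM with CHIR99021 and 41.0 ± 1.42 FPKM with DMSO (SD, n = 3 each), which is 1.57-fold lower. The log2 change was -0.63 ± 0.08 (SE; limma adjusted p = 0.00163), and it was lower in 3 of 3 replicate numbers. Stat6 fell in every leave-one-out fit (limma adjusted p = 0.00499 to 0.0121), and 257 of the 10096 tested genes had a smaller adjusted p. The Stat6 gene (chromosome 10, 127642986 to 127660987, mm10) overlaps the neighbouring transcriptional corepressor gene Nab2 by 70 bases in the deposited spans. Nab2 was also lower (5.62, 6.58 and 5.98 FPKM in CHIR99021 libraries, 13.0, 11.4 and 13.7 FPKM in DMSO libraries). The strand setting of the counting was not stated, so reads in those shared bases cannot be told apart.

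Stat3 was the most abundant of the STAT messages per length. It had 44.2, 50.4 and 48.7 FPKM in the CHIR99021 libraries, against 60.8, 63.4 and 65.4 FPKM in the DMSO libraries. The groups did not overlap, and replicate number 1 was the lowest in both. Stat3 averaged 47.8 ± 3.21 FPKM with CHIR99021 and 63.2 ± 2.30 FPKM with DMSO (SD, n = 3 each), 1.32-fold lower. Its log2 change was -0.40 ± 0.08 (SE; limma adjusted p = 0.0137, or 0.00226 with the block). The call was lost, with a limma adjusted p of 0.0509 without CHIR99021 replicate 3, 0.0536 without DMSO replicate 3 and 0.0622 with both libraries numbered 1 left out. Stat3 lies on chromosome 11 at 100886810 to 100939511, 1640 bases from Stat5a.

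Stat5a and Stat5b encode closely related factors of the IL-2 family signal and stand next to each other on chromosome 11, Stat5b at 100780731 to 100850585 and Stat5a at 100859351 to 100885169. Stat5b had 17.1, 17.8 and 18.2 FPKM in the CHIR99021 libraries, against 22.4, 22.2 and 24.7 FPKM in the DMSO libraries. All CHIR99021 values were below all DMSO values. The log2 change of Stat5b was -0.37 ± 0.09 (SE; limma adjusted p = 0.0222, or 0.00523 with the block), 1.31-fold lower. Without CHIR99021 replicate 1, 2 or 3 its limma adjusted p was 0.0699, 0.0634 and 0.0708, without DMSO replicate 3 it was 0.0818, and with both libraries numbered 1 left out it was 0.103. Stat5a had 13.6, 15.0 and 12.4 FPKM in the CHIR99021 libraries, against 14.9, 18.2 and 17.1 FPKM in the DMSO libraries. The groups touched, since CHIR99021 replicate 2 slightly exceeded DMSO replicate 1, although Stat5a was lower in 3 of 3 replicate numbers. The Stat5a change of -0.28 ± 0.11 (SE) did not pass (limma adjusted p = 0.125) and passed with the block (limma adjusted p = 0.0361).

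Sequence shared by the Stat5 genes could move reads between them. In the protein-coding transcripts of GENCODE M21, 14.7% of the 50-base windows of Stat5a also occurred in Stat5b, and 11.1% of those of Stat5b occurred in Stat5a, while no other pair of the 9 genes shared a window. How the authors treated reads with several matches was not stated. With the FPKM of both genes summed, the log2 change was -0.34 ± 0.08 (SE; limma adjusted p = 0.0253). The ratio of Stat5b to Stat5a was 1.26, 1.19 and 1.47 in the CHIR99021 libraries, against 1.51, 1.22 and 1.44 in the DMSO libraries. The ratios overlapped, and the log2 ratio differed by -0.09 (CHIR99021 minus DMSO). The exact two-sided permutation test gave p = 0.6, but 3 against 3 cannot go below 0.1, so it could not have passed 0.05 and says nothing about whether the ratios differ.

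Stat4 and Stat2 did not pass without the block. Stat4 had 14.2, 11.4 and 17.4 FPKM in the CHIR99021 libraries, against 18.5, 15.4 and 17.1 FPKM in the DMSO libraries. The groups overlapped, and in replicate number 3 the CHIR99021 library was not below its DMSO partner. The change of -0.24 (95% interval -0.60 to 0.11) did not pass (limma adjusted p = 0.297, or 0.0894 with the block). Stat2 had 7.42, 10.1 and 6.94 FPKM in the CHIR99021 libraries, against 9.84, 13.2 and 8.74 FPKM in the DMSO libraries. Replicate number 2 was the highest in both groups, so the groups overlapped, while each CHIR99021 library was below the DMSO library of its number by 0.36, 0.35 and 0.29 on the log2 scale. The Stat2 change of -0.34 ± 0.18 (SE) had a limma adjusted p of 0.231, and of 0.0123 with the block, which takes those shared shifts out.

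**Figure D3:**
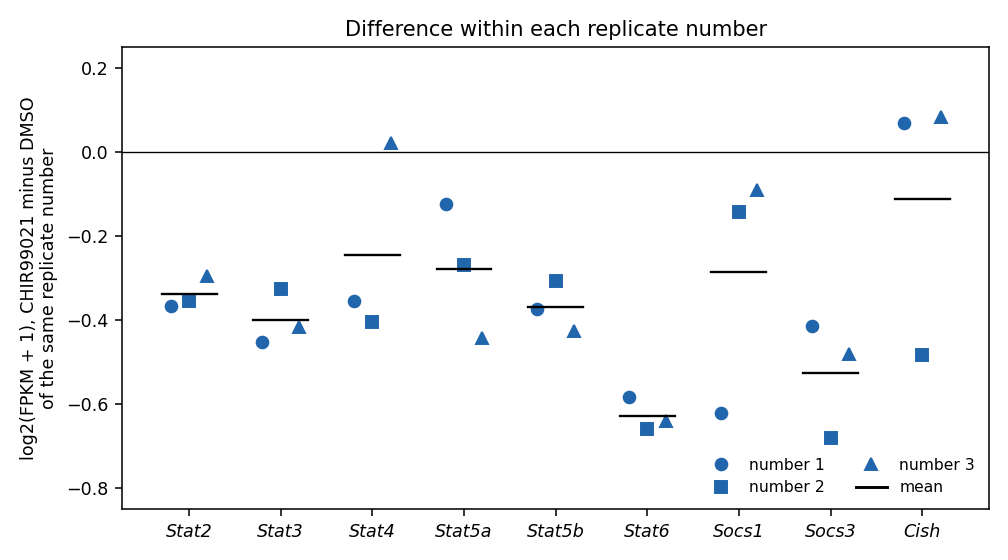
Difference in log2(FPKM + 1) between the CHIR99021 and the DMSO library of the same replicate number, for each gene, with the mean as a line. Stat2, Stat3, Stat5a, Stat5b, Stat6, Socs1 and Socs3 are below 0 for all 3 numbers, Stat4 for 2 and Cish for 1.

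Stat6 made up a smaller part of the STAT messages in CHIR99021 cells. The summed level of the 6 STAT genes was 128 ± 4.55 FPKM with CHIR99021 and 172 ± 5.06 FPKM with DMSO (SD, n = 3 each). Stat3 supplied 37.4 ± 1.26% of that sum with CHIR99021 and 36.8 ± 0.491% with DMSO. Stat6 supplied 21.2%, 19.9% and 20.4% in the CHIR99021 libraries, against 23.7%, 23.9% and 24.0% in the DMSO libraries, a difference of -3.37 percentage points. Stat6 was the only one of the 6 STAT genes whose shares did not overlap between the groups, and the shares were described without a test. They add up to the whole, so a lower share of 1 gene raises the others.

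**Figure D4:**
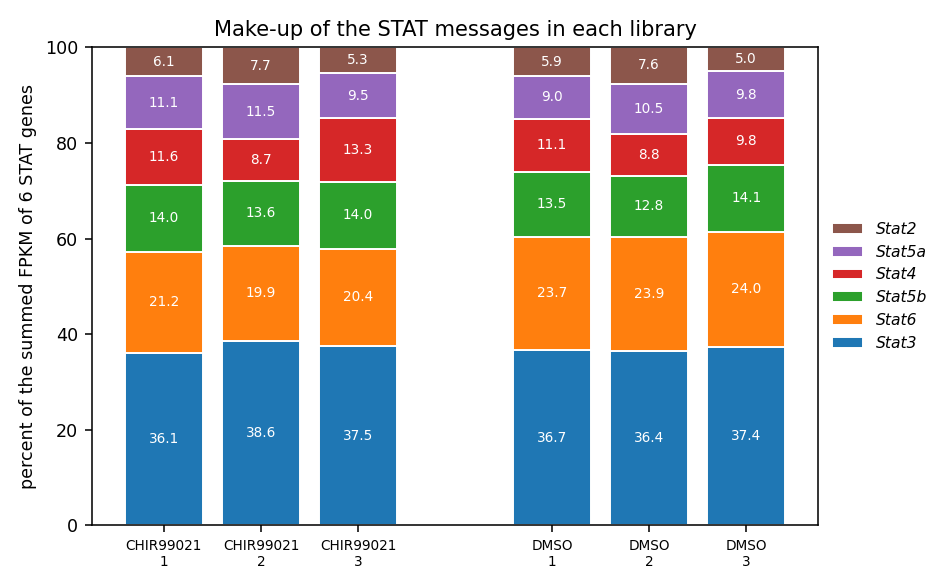
Each STAT gene as a percent of the summed FPKM of the 6 STAT genes, for 3 CHIR99021 and 3 DMSO libraries. Stat3 and Stat6 are the largest parts in every library, and the Stat6 part is smaller in all 3 CHIR99021 libraries.

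The order of the levels was the same in both groups. Socs3 was highest, followed by Stat3, Stat6, Stat5b, Stat4, Stat5a, Socs1, Stat2 and Cish. Socs3, Stat3 and Stat6 were each apart from the next gene in both groups. Stat4 and Stat5a could not be ordered beyond their spread in either group, nor could Socs1 and Stat2. In CHIR99021 cells the ranges of Stat5b and Stat4 overlapped as well, whereas in DMSO cells they did not. By mean level over all libraries, Socs3 lay at the 94.8th percentile of tested genes, Stat3 at the 86.5th and Cish at the 15.7th.

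The SOCS genes differed in level and in how well they could be measured. Socs3 encodes an inhibitor that binds JAK kinases and gp130-type receptors and is a direct target of STAT3. It had 112, 104 and 121 FPKM in the CHIR99021 libraries, against 149.7, 168 and 169 FPKM in the DMSO libraries. The groups were well apart. Socs3 averaged 113 ± 8.33 FPKM with CHIR99021 and 162 ± 10.9 FPKM with DMSO (SD, n = 3 each), 1.44-fold lower. Its log2 change was -0.52 ± 0.09 (SE; limma adjusted p = 0.00663, and 0.0109 to 0.0311 with any 1 library left out). Socs1, an inhibitor of JAK kinases that restrains interferon and IL-4 signals, had 6.73, 9.32 and 10.5 FPKM in the CHIR99021 libraries, against 10.9, 10.4 and 11.2 FPKM in the DMSO libraries. The groups overlapped, and CHIR99021 replicate 1 was the lowest. The change of -0.28 (95% interval -0.64 to 0.08) did not pass (limma adjusted p = 0.233, or 0.0952 with the block). Cish, a STAT5 target that damps IL-2 family signals, had 3.14, 1.64 and 3.47 FPKM in the CHIR99021 libraries, against 2.95, 2.69 and 3.22 FPKM in the DMSO libraries. The groups overlapped, and only replicate number 2 was lower with CHIR99021. The Cish change of -0.11 (95% interval -0.61 to 0.39) did not pass (limma adjusted p = 0.771) and turned to 0.13 without CHIR99021 replicate 2. The upper Cufflinks limit lay 3.26% to 4.52% above the value for Socs3, 24.5% to 32.7% above it for Socs1 and 26.1% to 40.0% above it for Cish.

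The promoters of the feedback genes are shown because STAT proteins are known to act on them. The windows run from 250 bases before to 30 bases from the annotated start (RefSeq, GRCm38.p6), read 5′ to 3′ on the gene's strand. Capitals mark matches to TTCNNNGAA, the spacing that most STAT dimers bind, or to GAAANNGAAA on either strand, a pattern that interferon regulatory factors bind. The windows are chr11:117969337-117969616 on the minus strand for Socs3, chr9:107296409-107296688 on the plus strand for Cish and chr16:10785507-10785786 on the minus strand for Socs1.
Socs3: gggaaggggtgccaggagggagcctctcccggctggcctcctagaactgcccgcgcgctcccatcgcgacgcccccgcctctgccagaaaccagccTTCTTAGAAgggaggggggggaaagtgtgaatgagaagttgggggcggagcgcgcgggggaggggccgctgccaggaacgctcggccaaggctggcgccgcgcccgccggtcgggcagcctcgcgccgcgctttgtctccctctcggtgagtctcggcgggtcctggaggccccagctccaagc
Cish: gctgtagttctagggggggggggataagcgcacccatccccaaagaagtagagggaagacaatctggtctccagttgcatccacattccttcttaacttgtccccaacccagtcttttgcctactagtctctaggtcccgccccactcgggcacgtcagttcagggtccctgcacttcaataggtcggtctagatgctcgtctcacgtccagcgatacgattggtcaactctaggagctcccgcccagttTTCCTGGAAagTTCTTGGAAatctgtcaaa
Socs1: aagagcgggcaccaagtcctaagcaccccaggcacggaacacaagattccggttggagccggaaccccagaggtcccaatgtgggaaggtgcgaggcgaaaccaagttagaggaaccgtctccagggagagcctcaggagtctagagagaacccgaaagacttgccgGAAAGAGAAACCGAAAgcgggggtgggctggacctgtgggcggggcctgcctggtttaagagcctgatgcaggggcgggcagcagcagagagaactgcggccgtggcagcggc
Socs3 held 1 match to TTCNNNGAA at bases -154 to -146, counted from the start as base 1. Cish held 2, at bases 1 to 9 and 12 to 20, and Socs1 held none but had 2 overlapping matches to GAAANNGAAA at bases -83 to -74 and -77 to -68. Among all 32851 annotated windows of the same length, 7.83% held TTCNNNGAA, 6.50% held TTCNNNNGAA, the wider spacing that STAT6 binds, and 3.28% held GAAANNGAAA. The 9 genes had 12 windows, at least 1 each. The counts that follow are per gene, whereas the shares above are per window. TTCNNNGAA occurred in 2 of them (Socs3 and Cish), TTCNNNNGAA in 1 (Stat2) and GAAANNGAAA in 3 (Socs1, Stat2 and Stat4). A match is a description of letters and not a measured binding site.

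Upstream of the STATs, receptor chains were lower for IL-21, given during treatment, and for IL-4, named only for the 4 days before it. Il21r and Il2rg encode the chains of the IL-21 receptor. Il2rg had 115, 113 and 112 FPKM in the CHIR99021 libraries, against 191, 162 and 194 FPKM in the DMSO libraries (log2 change -0.68 ± 0.09 SE, limma adjusted p = 0.00234), with no overlap. Il21r was 1.73-fold lower and Il4ra, the IL-4 receptor chain, 2.37-fold lower (limma adjusted p = 0.00107 and 0.000549). Over all tested genes 13.3% were called lower and 8.13% higher, or 24.4% and 18.4% with the block. Of 17 tested cytokine receptor genes, 7 fell and 1 rose (9 and 3 with the block), with a median log2 change of -0.48. Besides these, Ifngr1, a chain of the interferon gamma receptor, fell to 17.5 ± 0.414 FPKM in CHIR99021 cells, against 38.5 ± 3.23 FPKM in DMSO cells (SD, n = 3 each; limma adjusted p = 0.000512). The gene that rose was Il2ra, the high-affinity chain of the IL-2 receptor, with 7.07, 7.19 and 9.68 FPKM in CHIR99021 libraries, against 1.55, 1.58 and 1.77 FPKM in DMSO libraries (limma adjusted p = 0.000546).

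Jak1 and Jak3 fell among the Janus kinases. Without the block, with all libraries and with no further scaling, none was called higher. Jak1, which serves the IL-4, IL-21, IL-2 and interferon receptors, had 40.8, 40.9 and 41.3 FPKM in the CHIR99021 libraries, against 84.1, 83.3 and 91.0 FPKM in the DMSO libraries. The CHIR99021 values were nearly identical and the groups were far apart. Jak1 fell with a log2 change of -1.05 ± 0.07 (SE; limma adjusted p = 0.000431). Jak3, the partner of the common gamma chain, averaged 40.1 ± 1.03 FPKM with CHIR99021 and 55.8 ± 2.93 FPKM with DMSO (SD, n = 3 each; log2 change -0.47 ± 0.08 SE, limma adjusted p = 0.00577). Jak2 had 7.01, 7.72 and 8.64 FPKM in the CHIR99021 libraries, against 5.19, 6.37 and 4.60 FPKM in the DMSO libraries. All CHIR99021 values of Jak2 were above all DMSO values, and its change of 0.47 ± 0.14 (SE) did not pass (limma adjusted p = 0.0539, or 0.0341 to 0.187 with any 1 library left out) and passed with the block (0.0212). Jak2 was also called higher with upper-quartile and quantile scaling (limma adjusted p = 0.0376 and 0.0246) and without DMSO replicate 2. Tyk2 had 12.2 ± 1.73 FPKM with CHIR99021 and 15.0 ± 1.06 FPKM with DMSO (SD, n = 3 each), with a limma adjusted p of 0.139, or 0.0286 with the block. The list of 4 kinases thus had 2 lower and 0 higher, or 3 lower and 1 higher with the block. Over all tested genes 21.4% were called, or 42.8% with the block.

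Other restraints on the pathway also split. Of 14 tested genes, 5 fell and 1 rose (6 and 1 with the block), with a median log2 change of -0.12. The shares over all tested genes were 13.3% lower and 8.13% higher, or 24.4% and 18.4% with the block. Among the 14, the gene that rose was Socs2, a SOCS family member best known for damping growth hormone signals. Socs2 had 26.8, 26.5 and 31.6 FPKM in the CHIR99021 libraries, against 13.8, 16.3 and 15.3 FPKM in the DMSO libraries. Its groups were apart in the direction opposite to those of Socs3, with a log2 change of 0.86 ± 0.11 (SE; limma adjusted p = 0.00186), 1.87-fold higher. Those that fell included Ptprc, which encodes the phosphatase CD45 (1.70-fold lower, limma adjusted p = 0.00062), and the phosphatase gene Ptpn1 (1.65-fold lower, limma adjusted p = 0.00115). Sh2b3, which encodes the adaptor LNK, had 15.7 ± 2.68 FPKM with CHIR99021 and 33.5 ± 4.07 FPKM with DMSO (SD, n = 3 each; limma adjusted p = 0.00242). The remaining SOCS genes that were tested, Socs4, Socs6 and Socs7, did not pass in either fit.

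Of 5 nuclear partners of the STATs, 3 fell in both fits, with a median log2 change of -0.59. Over all tested genes 13.3% were called lower, or 24.4% with the block. Irf9, the DNA-binding partner of STAT2, had 5.06, 6.29 and 3.32 FPKM in the CHIR99021 libraries, against 9.47, 9.42 and 7.92 FPKM in the DMSO libraries (limma adjusted p = 0.0274). Nmi, which encodes a STAT-interacting protein, and the coactivator gene Ncoa1 had limma adjusted p of 0.0296 and 0.033. These calls were fragile, at 1 of the 5 without CHIR99021 replicate 1, DMSO replicate 1 or DMSO replicate 3 and at 0 without CHIR99021 replicate 3 or DMSO replicate 2. In each of these fits 3 of the 5 had an unadjusted limma p under 0.05.

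Known response genes were set beside their STATs. The shares over all tested genes were 13.3% lower and 8.13% higher, or 24.4% and 18.4% with the block. All 7 tested STAT6 and IL-4 response genes fell without and with the block, with a median log2 change of -1.20. The count was 5, with the MHC class II genes H2-Aa and H2-Ab1 not called, when no filter on level was used, without CHIR99021 replicate 2 or 3, without DMSO replicate 1 or 3, and with both libraries numbered 1 left out. They included Il4i1, Fcer2a (CD23) and the chemokine gene Ccl22, which were 6.08-fold, 4.83-fold and 2.85-fold lower than in DMSO cells, and Il4ra. The 5 general B cell markers read below also fell in both fits, with a median log2 change of -1.07. IL-4 was named only for the 4 days before treatment. Among 12 targets of the IL-21 and STAT3 signal, 4 fell and 2 rose (5 and 3 with the block), with a median of -0.17. Junb, an AP-1 subunit gene, and Mcl1, a survival gene, were 1.87-fold and 1.58-fold lower. Irf4 and Prdm1, which promote plasma cell differentiation, rose 2.69-fold and 2.58-fold over DMSO. Of 6 STAT5 response genes, Il2ra and Socs2 rose and the cytokine gene Osm fell (3.46 ± 1.33 FPKM with CHIR99021 and 8.45 ± 1.03 FPKM with DMSO, SD, n = 3 each), while with the block 3 rose and 2 fell. Of 5 tested STAT2 and IRF9 response genes, Bst2 rose and none fell, or 1 rose and 1 fell with the block. The remaining 9 of the 14 listed interferon response genes lay under the limit on level. These lists name genes known from other work, but they were chosen with earlier results of these data known. Their counts are therefore descriptions and not tests. The lists also share genes, among them Il2ra, Il4ra and Socs2, which were counted above with the receptors or restraints. No binding was measured here.

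**Figure D5:**
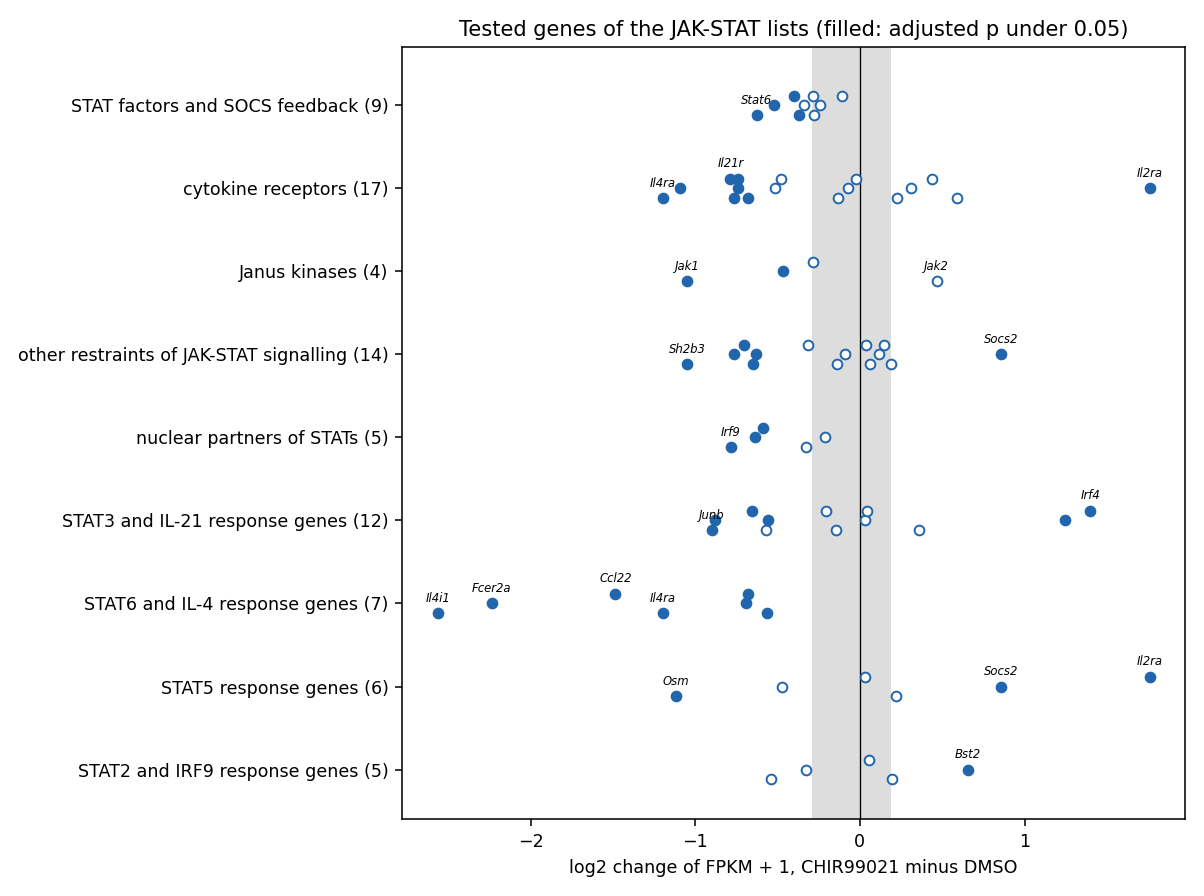
Log2 change of FPKM + 1, CHIR99021 minus DMSO, of every tested gene in each list, with the number tested in brackets; filled points had an adjusted p under 0.05 and the grey band covers the 25th to the 75th percentile of all tested genes. All 7 STAT6 and IL-4 response genes lie to the left, while Il2ra, Socs2 and Irf4 lie to the right.

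Over the 6 libraries the profile of Stat6, the gene of the 9 with the largest fall, was most like those of Klhl24, Idh1 and Frat1 (Pearson r of log2 values 0.9995, 0.999 and 0.998 across 6 libraries that form 2 groups). Such values come mainly from the difference between the groups, and 531 tested genes had r above 0.95 with Stat6. Klhl24 had 1.37, 1.32 and 1.56 FPKM in the CHIR99021 libraries, against 5.95, 7.08 and 6.95 FPKM in the DMSO libraries, and Idh1, an isocitrate dehydrogenase gene, had 5.24, 5.17 and 5.18 FPKM in the CHIR99021 libraries, against 7.50, 7.84 and 7.85 FPKM in the DMSO libraries.

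Across all tested genes, log2 values correlated at 0.970 to 0.980 between libraries of a group and at 0.942 to 0.967 between groups. Marker genes were read beside the results. All 5 B cell markers were present in every library and all 5 fell, with a summed level of 1178 to 1442 FPKM in CHIR99021 libraries and 2325 to 3221 FPKM in DMSO libraries. In bulk RNA, fewer cells of a type and less RNA per cell cannot be told apart. Of 7 T and NK cell markers found, 6 stayed below 1 FPKM in every library and 3, among them Cd3e, were at 0 throughout, and the sum was 0.0355 to 0.826 FPKM with CHIR99021 and 0.0319 to 1.54 FPKM with DMSO. Of 6 myeloid markers, Cd14 was at 0 and 3 stayed below 1 FPKM. The myeloid sum was 2.48 to 5.74 FPKM with CHIR99021 and 6.02 to 8.05 FPKM with DMSO, and Itgam fell. The 6 fibroblast markers, read for the feeder cells, summed to 233, 91.6 and 54.1 FPKM in CHIR99021 replicates 1, 2 and 3, against 306, 110 and 74.9 FPKM in DMSO replicates 1, 2 and 3. That sum, mostly collagen RNA, was highest in both libraries numbered 1 and lower with CHIR99021 within each number. Over all tested genes 13.3% were called lower, or 24.4% with the block. Of 5 tested fibroblast markers 1 fell, or 4 with the block. The one that fell without the block was Thy1, which was highest in the libraries numbered 3, with 4.21, 4.58 and 6.97 FPKM in CHIR99021 replicates 1, 2 and 3, against 11.0, 9.01 and 20.6 FPKM in DMSO replicates 1, 2 and 3. With both libraries numbered 1 left out, Stat6 and Socs3 were still called lower (limma adjusted p = 0.0179 and 0.0328). The fibroblast sum was also lower with CHIR99021 in the remaining numbers, and the part of feeder cells in any of the changes was not tested.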

How the data were processed

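Per the labels' protocols, RNA of purified cells went into TruSeq Stranded mRNA libraries. The tools named are TopHat2 2.1.1, Cufflinks 2.2.1 and cutadapt 1.12, with build mm10, per the submitters' processing notes. The authors deposited 1 table per library with FPKM per gene and its confidence limits, per the file headers. Annotation and strand setting: not given in the sources used here. FPKM are not counts, so precision was read from the Cufflinks limits, whose upper bound lay a median of 12.5% to 15.4% above the FPKM by library. The series' design text calls the replicates biological.

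FPKM were transformed to log2(FPKM + 1). Genes averaging at least 1 FPKM over the 6 libraries (10096) were tested for CHIR99021 minus DMSO. The test was limma 3.58.1 under R 4.3.3 (functions lmFit, eBayes with trend, two-sided, Benjamini-Hochberg over all tested genes, threshold 0.05). The fit without the block was checked on simulated data with independent libraries. That check did not include deviations shared by replicate number, nor the fit with the block. Deviations from group means correlated at 0.535, 0.490 and 0.517 between libraries of the same number (1, 2 and 3) and at -0.352 to -0.140 between other pairs. Deviations cancel out within a group, so positive values for the same number bring negative ones among the other pairs. From the positive values the numbers were taken to pair the libraries. That comes from the data and not from the labels. Folds are ratios of mean FPKM. Alternatives were other pseudocounts (0.1 and 5), no filter on level, upper-quartile and quantile scaling, the block, each library left out and, chosen after seeing the data, both libraries numbered 1 left out. Tables and figures were made with Python 3.11.15, pandas 2.3.3, numpy 2.4.6 and matplotlib 3.10.9.

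The genes described and the lists were chosen with earlier results of these data known. Of 106 list symbols 105 were matched, 1 of them through an older symbol. Named genes were the 9 genes, the Janus kinases, Il21r, Il2rg and Il4ra, at most 4 called genes per list, by adjusted p, and the 3 genes most correlated with the gene of the largest fall. Nab2, H2-Aa, H2-Ab1, Thy1, Itgam, Lyz2, S100a8, Cd3e, Cd14, Socs4, Socs6 and Socs7 were named after their values were seen. Deposited starts were converted to count from 1, and promoter sequences are RefSeq's.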

Additional observations from a re-analysis of the deposited data

How the results depend on the processing

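Stat6 and Socs3 were called lower under all 13 alternatives, with log2 changes of -0.66 to -0.56 and -0.58 to -0.47. Stat3 and Stat5b were called under 10 and 8 of 13, and every alternative without a call left out 1 or 2 libraries, so fewer samples were fitted. Stat2 was called only with the replicate block, and Stat5a only with the block and when summed with Stat5b. Stat4, Socs1 and Cish were never called, and Cish alone of the 9 changed sign, with -0.26 to 0.13 when 1 library was left out. Of 364 values for 28 other genes named by rule, 336 kept their side of the threshold, 23 lost and 5 gained a call. None of the 364 changed sign. Genes named after their values were seen are not in that tally. Among those, H2-Aa, H2-Ab1 and Thy1 lost the call under several alternatives.

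Of the 9 genes, 2 to 4 were called with 1 library left out and 2 with both libraries numbered 1 left out, against 4 with all libraries and 6 with the block. For all tested genes the count was 2164, with 4321 under the replicate block, 1061 to 1983 with 1 library left out (1410 without CHIR99021 replicate 2, 1061 without CHIR99021 replicate 3, 1310 without DMSO replicate 3) and 1088 with both libraries numbered 1 left out. With the block, calls were 4 of 4 Janus kinases, 5 of 6 STAT5 response genes and 2 of 5 STAT2 and IRF9 response genes, against 2, 3 and 1. Over all tested genes 42.8% were called with the block and 21.4% without it. Calls among the 5 nuclear partners were 0 with no filter on low values, where more genes were tested, 0 to 2 with 1 library left out and 1 with both libraries numbered 1 left out. In limma fits with 0 calls, 3 of the 5 had an unadjusted p under 0.05. Leaving both libraries numbered 1 out gave 0 calls among the STAT2 and IRF9 response genes by limma, and 1 at an unadjusted p under 0.05. Scaling moved the share of higher calls among all genes from 37.9% to 48.7% (upper-quartile) and 51.2% (quantile), while Stat6, Socs3, Stat3 and Stat5b were called lower under both. The log2 difference of the Stat5b to Stat5a ratio was -0.18 to -0.02 with 1 library left out, and pairing by number gave an exact p of 0.5, in a design that cannot go below 0.25. Sequencing depth is unknown, so what it limits was not assessed.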
